A study of Mus musculus with 5 samples.

Results

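The AP-1 transcription factors were followed through 10 subunit genes, given as a list of symbols that was drawn up with earlier results of these data known: Fos, Fosb, Fosl1 and Fosl2 of the Fos family, Jun, Junb and Jund of the Jun family, and the ATF-like genes Atf3, Jdp2 and Batf3. All 10 were found among the 23951 genes of the table. RNA had been sequenced from 5 samples of sorted mouse beta cells. The p16 group held 3 samples from mice with the transgenes Ins-rtTA, tet-GFP and tet-p16ink4a, in which beta cells made p16INK4a, an inhibitor of the kinases that drive the G1 phase, together with green fluorescent protein (GFP). The GFP group held 2 samples from mice with Ins-rtTA and tet-GFP only. Both groups received tetracycline for 10 days, and in both, islets were dissociated and the cells with fluorescence collected by sorting. The activator rtTA, which switches on tet-linked genes in the presence of the drug, was named for an insulin promoter, so both transgenes and the sort depended on cells in which that promoter was active. Ages were not given in the sources used here, nor whether samples were separate mice. The sample list used here held no sex either.

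AP-1 is a family of dimers of basic leucine zipper (bZIP) proteins. Fos proteins cannot pair with each other and bind DNA with a Jun partner, whereas Jun proteins also pair among themselves and with ATF-like proteins. Several subunits are immediate early genes: their mRNAs are short-lived and appear within minutes of a stimulus such as a growth factor, stress or the enzymatic dissociation of a tissue, islets included. Others, such as Jund, are made at a steadier level in resting cells.

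Levels are the authors' FPKM, fragments scaled by transcript length and library size, which can be compared between genes for that reason. The deposited table holds 1 value per group and gene, so no SD, sample values or overlap of samples can be given, and depth per sample is unknown. A gene is said to have risen or fallen only where its q-value in the authors' deposited table was below 0.05. There, 573 of 13264 tested genes were higher in p16, or 4.32%, and 146 were lower, or 1.1%. Such p-values set the difference of the group values against a spread estimated by the authors' tool, in a way not given here. That spread may be technical in part.

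The gene of the transgene came first. Cdkn2a, which encodes p16INK4a, stood at 34.6 FPKM in p16 cells and 0.657 FPKM in GFP cells, 52.7-fold higher in the authors' deposited table (q = 0.00245). Whether the transgene carried the mouse or another species' sequence was not given in the sources used here, so this mouse gene's FPKM may not measure the transgene itself. Of 9 beta cell markers, which summed to 3199.9 FPKM in p16 cells and 4093 FPKM in GFP cells, 6 were tested, with 3 higher and 3 lower values in p16. One was called: Slc2a2, which encodes the glucose transporter GLUT2, had 205.2 FPKM in p16 cells and 401.7 FPKM in GFP cells (q = 0.0242 in the authors' deposited table). The most abundant of the 6 tested, G6pc2, which encodes an islet glucose-6-phosphatase, reached 2327 FPKM in p16 cells and 3012 FPKM in GFP cells. Ins1, Ins2 and Iapp had a listed level of 0 in p16 and in GFP cells because the authors' tool had marked them as holding too many fragments. The beta cell sum counts these genes as 0, so it is too low and cannot be set against the sums of other cell types. Markers of the other islet cells were present too. The 3 delta cell markers summed to 2782 FPKM in p16 cells and 1297 FPKM in GFP cells, the 2 PP cell markers to 1217 FPKM in p16 cells and 569.5 FPKM in GFP cells, and the 5 alpha cell markers to 2781 FPKM in p16 cells and 2159 FPKM in GFP cells. Of 4 endothelial markers none was tested, with sums of 0.525 FPKM in p16 cells and 0.5004 FPKM in GFP cells. Leukocyte markers summed to 3.91 FPKM in p16 cells and 2.35 FPKM in GFP cells, stellate cell markers to 4.55 FPKM in p16 cells and 0.461 FPKM in GFP cells, and acinar markers to 13.8 FPKM in p16 cells and 13.0 FPKM in GFP cells. The 4 duct markers summed to 168.9 FPKM in p16 cells and 143.7 FPKM in GFP cells. Krt7, which was not called, made most of this sum, at 151.5 FPKM in p16 cells and 134.0 FPKM in GFP cells. In the authors' deposited table, Sox9 and Spp1 rose and Krt19 fell. Among tested markers, 2 of 3 delta, 2 of 2 PP and 1 of 4 alpha markers rose there. So did 2 of 2 stellate and 1 of 2 leukocyte markers, and no marker of these lists fell. Over all tested genes, 4.32% rose. The part of these other cells in the AP-1 values was not tested, and in sorted bulk samples fewer cells of a type and less RNA per cell cannot be told apart. Genes tied to sex differed as well. Xist, known from female cells, rose, with a log2 ratio of p16 over GFP of 1.45. The Y-linked gene Eif2s3y fell, with a log2 ratio of -1.39. Y-linked Ddx3y, Kdm5d and Uty also had lower values in p16 but were not called. The groups may thus differ in sex, and its part in the AP-1 values was not tested.

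The promoters of the 5 AP-1 genes that fell and of the 1 that rose are shown first, since early genes are known to be switched on through short elements near the start. Each run covers 150 bases before to 50 bases after a RefSeq start, 5′ to 3′ on the strand of the gene, in the GRCm38.p6 build, which differs from the mm9 build of the table. Capitals mark matches, on either strand, to the elements searched.
Fos (chr12:85473740-85473939, plus strand): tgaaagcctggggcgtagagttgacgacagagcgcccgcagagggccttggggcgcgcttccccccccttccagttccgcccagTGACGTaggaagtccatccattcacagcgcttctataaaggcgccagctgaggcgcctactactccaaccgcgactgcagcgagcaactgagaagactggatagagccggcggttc
Fosb (chr7:19309996-19310195, minus strand): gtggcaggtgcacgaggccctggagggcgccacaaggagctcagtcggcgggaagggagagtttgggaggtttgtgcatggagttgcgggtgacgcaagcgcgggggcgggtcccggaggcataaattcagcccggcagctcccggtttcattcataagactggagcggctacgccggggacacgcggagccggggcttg
Jun (chr4:95052173-95052372, minus strand): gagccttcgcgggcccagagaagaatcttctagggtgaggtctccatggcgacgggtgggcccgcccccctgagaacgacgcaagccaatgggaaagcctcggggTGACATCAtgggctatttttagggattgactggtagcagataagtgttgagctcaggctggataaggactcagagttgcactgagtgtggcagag
Junb (chr8:84978699-84978898, minus strand): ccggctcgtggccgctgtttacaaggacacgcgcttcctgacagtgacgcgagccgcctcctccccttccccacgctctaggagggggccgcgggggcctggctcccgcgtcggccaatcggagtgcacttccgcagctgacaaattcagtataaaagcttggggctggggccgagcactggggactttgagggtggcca
Atf3 (chr1:191183284-191183483, minus strand): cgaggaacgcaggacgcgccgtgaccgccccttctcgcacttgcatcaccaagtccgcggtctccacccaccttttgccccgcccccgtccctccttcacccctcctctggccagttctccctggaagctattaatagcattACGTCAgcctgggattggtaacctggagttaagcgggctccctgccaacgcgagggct
Jdp2 (chr12:85599266-85599465, plus strand): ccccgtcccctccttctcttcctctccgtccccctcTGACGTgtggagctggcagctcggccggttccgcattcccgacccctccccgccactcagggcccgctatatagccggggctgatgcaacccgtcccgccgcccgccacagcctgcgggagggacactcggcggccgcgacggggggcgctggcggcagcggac

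The search covered 11 windows of 300 bases, 250 before and 50 after the start, from the 9 AP-1 genes with a RefSeq entry, and 32851 such windows over all genes. TGACGT, the core of the cAMP response element bound by CREB and ATF proteins, lay in 3 of the 11 AP-1 windows and in 7.51% of all windows. It lay 66 to 61 bases before the start of Fos, 8 to 3 bases before that of Atf3, as ACGTCA, and 114 to 109 bases before the start of the Jdp2 window shown. Jdp2 has 3 windows in the RefSeq table, and the other two held no match. TGACATCA, a variant element known from the human JUN promoter, lay 45 to 38 bases before the start of Jun and in 3.62% of all windows. The full palindrome TGACGTCA, which contains the core, the AP-1 element TGACTCA and the CArG box bound by serum response factor had no match in the 11 AP-1 windows, against 1.79%, 5.20% and 1.63% of all windows. At these low shares, no match in 11 windows shows little, and bases farther than 250 before the start were not searched. The Fosb and Junb windows held none of the 5 elements. These matches describe letters only and were found in genes that fell and in Jdp2, which rose.

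The 2 abundant Fos family genes fell. Fos, which encodes c-Fos and lies at chromosome 12, 86814851 to 86818219 (mm9), had 94.3 FPKM in p16 cells and 599.9 FPKM in GFP cells, or 15.7% of the GFP level. Its log2 ratio was -2.67, a 6.36-fold fall in the authors' deposited table (p = 5e-05, q = 0.00245), and that p was the smallest in the table, shared by 271 genes. Fosb, which encodes FosB and its shorter splice form DeltaFosB, which the table does not separate, lies at chromosome 7, 19888045 to 19895394 (mm9). It had 341.7 FPKM in p16 cells and 1052 FPKM in GFP cells and fell 3.08-fold in the authors' deposited table (log2 ratio -1.62, q = 0.00752). Of the 10 genes Fosb was the second most abundant in p16 cells and the first in GFP cells, and its level fell by 710.3 FPKM, more than that of any other of the 10, although Fos lost the larger share.

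The Fos-related antigens Fosl1 and Fosl2, which encode Fra-1 and Fra-2 and lack the strong activating region of c-Fos, were less abundant than Fos and Fosb in both groups. Fosl2 (chromosome 5, 32438845 to 32460212, mm9) had 23.7 FPKM in p16 cells and 27.9 FPKM in GFP cells, with a log2 ratio of -0.24 (q = 0.737 in the authors' deposited table). Fosl1 (chromosome 19, 5447698 to 5457563, mm9) had 3.24 FPKM in p16 cells and 3.99 FPKM in GFP cells, with a log2 ratio of -0.30 (q = 0.945 in the authors' deposited table), so neither was called. The table's locus of Fosl1 also holds Ccdc85b, so the split of reads between these overlapping genes is uncertain.

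**Figure D1:**
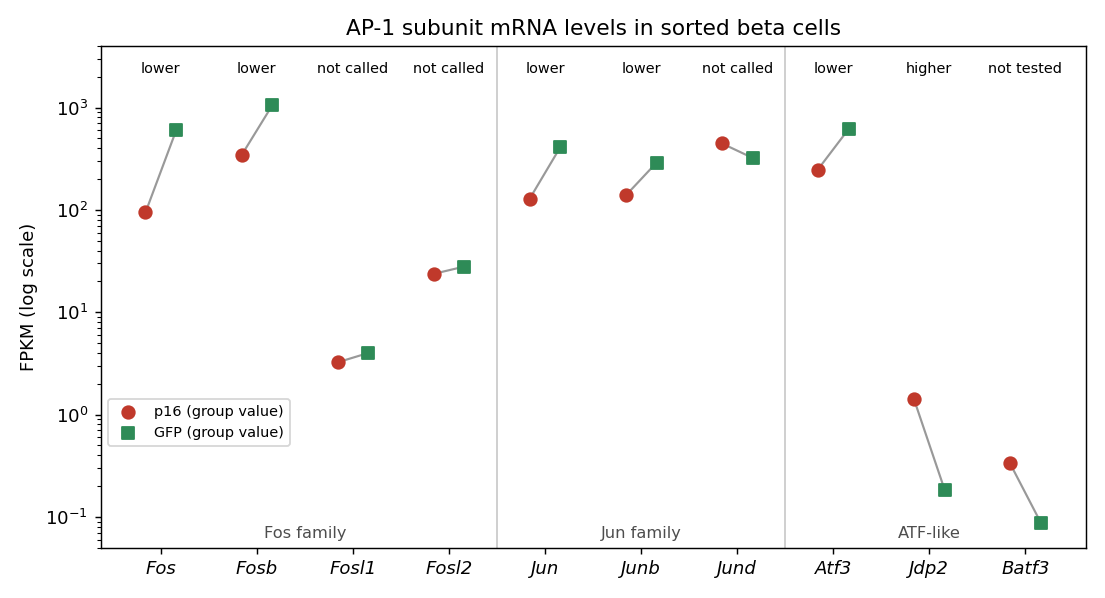
FPKM (log scale) of the 10 AP-1 genes, by subfamily, with the p16 group value as a red circle left of the GFP group value as a green square and a line joining the pair; the words above give the call at a q-value below 0.05 in the authors' deposited table. The p16 value lies below the GFP value for Fos, Fosb, Jun, Junb and Atf3, which were called lower, and above it for Jdp2, which was called higher.

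In the Jun family, Jun and Junb fell and Jund was not called. Jun, which encodes c-Jun and has a single exon, lies at chromosome 4, 94715727 to 94718913 (mm9). It had 128.6 FPKM in p16 cells and 412.1 FPKM in GFP cells, a 3.20-fold fall in the authors' deposited table (log2 ratio -1.68, p = 5e-05, q = 0.00245). Junb, which encodes a weaker activator that can oppose c-Jun, lies at chromosome 8, 87500808 to 87502647 (mm9). Its 138.3 FPKM in p16 cells against 289.4 FPKM in GFP cells made a 2.09-fold fall in the authors' deposited table (log2 ratio -1.07, q = 0.0363), the smallest of the 5 falls. Jund encodes a subunit known to be made steadily in resting cells and to slow growth in fibroblasts, and lies at chromosome 8, 73221638 to 73224515 (mm9). It stood at 446.5 FPKM in p16 cells and 322.1 FPKM in GFP cells, with a log2 ratio of 0.47 that missed the threshold (p = 0.12, q = 0.446 in the authors' deposited table). Jund was thus the most abundant of the 10 genes in p16 cells and the fifth in GFP cells, where Fosb, Atf3, Fos and Jun stood above it. Jund had 3.47 times the FPKM of Jun in p16 cells and 0.782 times in GFP cells; this ratio of ratios has no test, since sample values are not given.

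Of the ATF-like genes, Atf3 fell. Atf3, a stress-induced factor that represses as a dimer with itself and can activate with a Jun partner, lies at chromosome 1, 192994176 to 193007212 (mm9). It had 248.0 FPKM in p16 cells and 616.2 FPKM in GFP cells and fell 2.49-fold in the authors' deposited table (log2 ratio -1.31, q = 0.0118). Jdp2, a repressor that binds c-Jun, lies at chromosome 12, 86940055 to 86980828 (mm9). It had 1.41 FPKM in p16 cells and 0.184 FPKM in GFP cells, so it was near the floor of the tested genes in GFP cells, at rank 13047 of 13264. Its log2 ratio of 2.95 passed in the authors' deposited table (q = 0.0152), but at a mean of 0.799 FPKM its size rests on values near 0, and with a pseudocount of 1 the log2 ratio was 1.03. Among tested genes with a mean under 1 FPKM, 6.85% were higher in p16. Batf3, a partner of Jun proteins best known from dendritic cells, had 0.333 FPKM in p16 cells and 0.0880 FPKM in GFP cells (chromosome 1, 192922293 to 192932822, mm9) and was not tested by the authors.

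Among the 9 AP-1 genes tested, 5 fell and 1 rose in the authors' deposited table, where 1.1% of all 13264 tested genes fell and 4.32% rose. The median log2 ratio of the 9 was -1.07, against -0.02 for all tested genes. The 5 that fell were also among the abundant transcripts: by FPKM among all tested genes, Fosb ranked 161st in p16 cells and 29th in GFP cells, Atf3 245th in p16 cells and 70th in GFP cells, and Fos 776th in p16 cells and 74th in GFP cells. Jun ranked 546th in p16 cells and 136th in GFP cells, and Junb 489th in p16 cells and 230th in GFP cells. Of 755 tested genes with a mean of at least 100 FPKM, 22 fell in the authors' deposited table, or 2.91%, and 5 of the 6 AP-1 genes at that level were among those 22. Since the mean is of both groups, Fos, at 94.3 FPKM in p16 cells, is in this set only through its GFP value. Ordered by log2 ratio from the strongest fall, Fos stood first of the 755, Jun at 8, Fosb at 10, Atf3 at 13, Junb at 19 and Jund at 714. The median log2 ratio was -1.47 for these 6 genes and -0.15 for the 755. At a q-value below 0.01 in the authors' deposited table, 0.437% of tested genes were lower, and Fos, Fosb and Jun were lower while Junb and Atf3 no longer passed; Jdp2 no longer passed either.

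**Figure D2:**
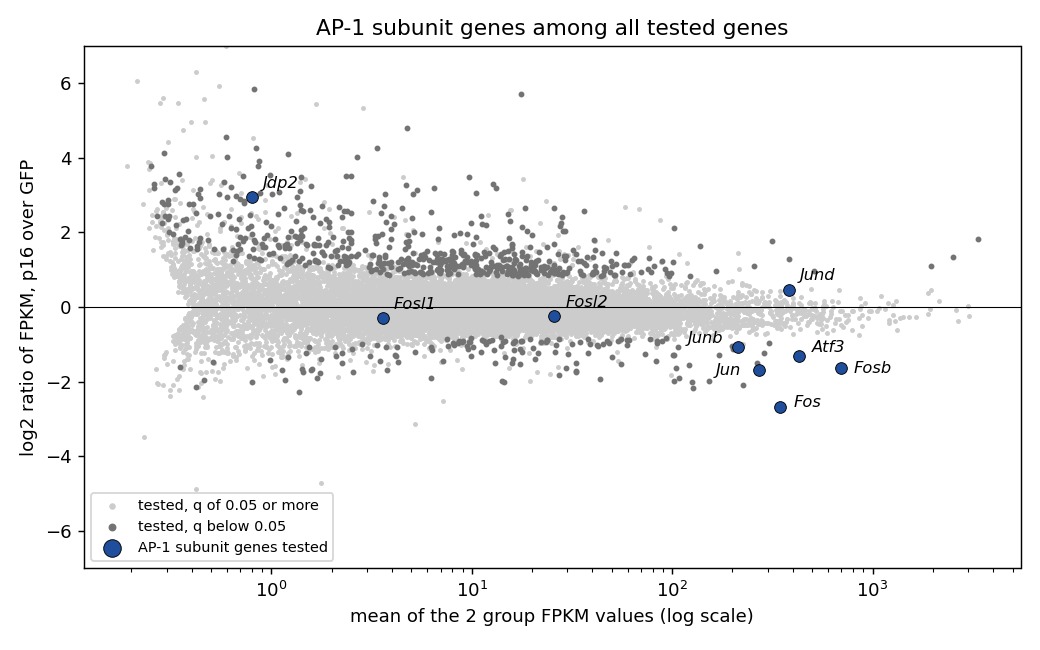
Log2 ratio of FPKM, p16 over GFP, against the mean of both group values (log scale) for 13174 tested genes with a value above 0 in both groups, 3 of which lie beyond the y axis limit of 7; light points had a q-value of 0.05 or more, dark points one below 0.05, and blue points are the 9 tested AP-1 genes. Fos, Jun, Fosb, Atf3 and Junb lie at the lower right, abundant and lower in p16, Jund lies above 0 at a like level, and Jdp2 lies at the upper left.

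GC content and length of transcripts together explained 23.0% of the variance of the authors' p-values taken as signed normal quantiles, so the calls were also read with a smooth trend in both removed. The transcripts of the 5 genes that fell had GC contents of 51.9% in Fos to 62.6% in Junb, all above the median of 49.7% over tested genes, and Jund had the highest of the 10 at 67.1%. With the trend removed, 3.05% of 12610 genes lay above and 0.698% below the quantile at which the authors' calls begin. The same 5 AP-1 genes remained lower, with quantiles of -4.77 in Jun, -4.58 in Fosb, -4.11 in Fos, -4.10 in Junb and -3.65 in Atf3. Each was farther from 0 than without the removal, where they were -4.06, -3.72, -4.06, -3.14 and -3.58. Fos and Jun hold the smallest p of the authors' deposited table, shared by 271 genes, so the order of these quantiles does not rank the genes. The quantile of Jund was 0.50 with the trend removed and 1.55 without. That of Jdp2 was 2.94, under the limit, and 3.48 without, so its call was lost.

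Summed over genes, AP-1 mRNA amounted to 1426 FPKM in p16 cells and 3324 FPKM in GFP cells, 2.33-fold lower in p16. The Fos family summed to 462.9 FPKM in p16 cells and 1684 FPKM in GFP cells, the Jun family to 713.3 FPKM in p16 cells and 1024 FPKM in GFP cells, and the ATF-like genes to 249.7 FPKM in p16 cells and 616.5 FPKM in GFP cells. These sums, and the shares that follow, have no test. Fos family genes made 32.5% of it in p16 cells and 50.7% in GFP cells, Jun family genes 50.03% in p16 cells and 30.8% in GFP cells, and ATF-like genes 17.5% in p16 cells and 18.5% in GFP cells. Fos family FPKM was thus 0.649 times Jun family FPKM in p16 cells and 1.64 times in GFP cells. The larger Jun family share in p16 cells came with a larger share of Jund, which was not called. Jund made 31.3% of the sum in p16 cells and 9.69% in GFP cells. Junb made 9.70% in p16 cells and 8.71% in GFP cells. The share of Jun was smaller in p16 cells, at 9.02%, than in GFP cells, at 12.4%. Within the Fos family, Fosb made 73.8% of the FPKM in p16 cells and 62.5% in GFP cells. Shares of mRNA do not give the dimers, since protein was not measured.

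**Figure D3:**
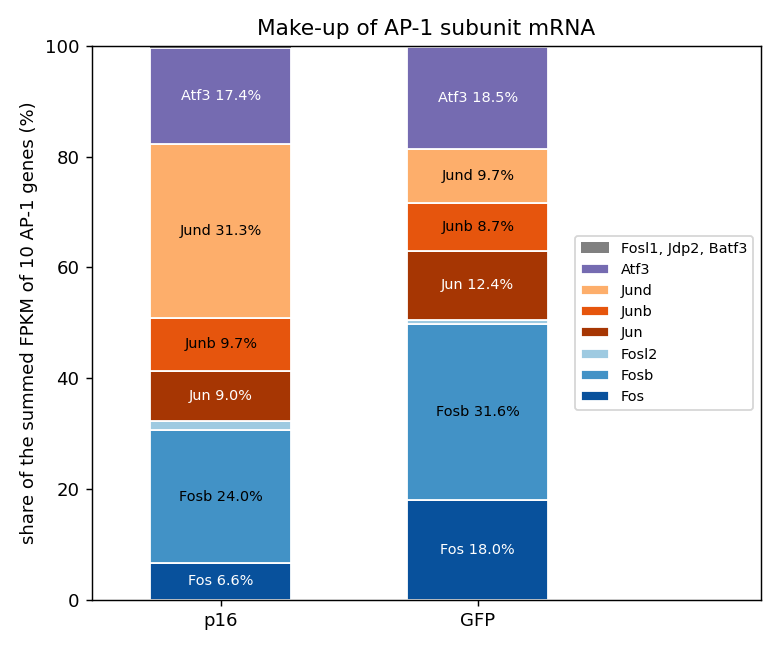
Share of the summed FPKM of the 10 AP-1 genes (percent) made by each gene in the p16 group, left, and the GFP group, right; bars are stacked to 100% and thin segments without a label are Fosl2, Fosl1, Jdp2 and Batf3. Jund makes 31.3% in p16 and 9.69% in GFP, and Fos 6.61% in p16 and 18.0% in GFP.

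Other bZIP factors, many of which can pair with AP-1 proteins, are read beside the whole table, where 4.32% of tested genes were higher and 1.1% lower. Of 35 listed, 32 were tested, and 3 rose and none fell in the authors' deposited table, with a median log2 ratio of 0.14. Among them were the repressors Bach1, at 24.1 FPKM in p16 cells and 13.0 FPKM in GFP cells (q = 0.0267 in the authors' deposited table), and Bach2, at 0.591 FPKM in p16 cells and 0.196 FPKM in GFP cells (q = 0.0152).

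For the upstream machinery, counts were near the same shares of all tested genes. Of 29 tested MAP kinases and scaffolds, which carry signals to AP-1 by phosphorylation, 1 rose and none fell in the authors' deposited table, with a median log2 ratio of 0.22. Mapk3, which encodes ERK1, had 127.3 FPKM in p16 cells and 123.2 FPKM in GFP cells (q = 0.964 in the authors' deposited table). The gene that rose, named after its values were seen, was Map2k3, an activator of p38 kinases, at 24.2 FPKM in p16 cells and 12.03 FPKM in GFP cells (q = 0.0174 in the authors' deposited table). Of 15 tested factors known to switch on Fos and Jun promoters, 1 rose and none fell in the authors' deposited table, with a median log2 ratio of 0.28. This was Mef2d, at 39.4 FPKM in p16 cells and 20.5 FPKM in GFP cells (q = 0.0223 in the authors' deposited table). Srf, which encodes serum response factor, stood at 81.9 FPKM in p16 cells and 59.9 FPKM in GFP cells and was not called (q = 0.404 in the authors' deposited table).

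Of 14 tested genes for turnover of AP-1 mRNA or protein, 1 fell and none rose in the authors' deposited table, with a median log2 ratio of -0.27. Over all tested genes, 1.1% fell and 4.32% rose. Zfp36, which encodes the mRNA-destabilising protein tristetraprolin and is itself an early gene, had 50.8 FPKM in p16 cells and 158.1 FPKM in GFP cells, a 3.11-fold fall in the authors' deposited table (q = 0.00245). Trib1, a scaffold for protein degradation, stood at 53.5 FPKM in p16 cells and 75.4 FPKM in GFP cells and was not called (q = 0.335 in the authors' deposited table).

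Genes long known as AP-1 targets are read beside the whole table. There, 573 genes were higher, or 4.32% of those tested, and 146 lower, or 1.1%. Of 40 listed, 24 were tested, 5 rose and 1 fell in the authors' deposited table, and the median log2 ratio of the 24 was 0.46. Vim, which encodes vimentin, had 9.18 FPKM in p16 cells and 0.328 FPKM in GFP cells, and Plaur, the urokinase receptor gene, had 2.59 FPKM in p16 cells and 0.230 FPKM in GFP cells (q = 0.00245 and 0.0174 in the authors' deposited table). Spp1, which encodes osteopontin and is also on the duct list, had 15.1 FPKM in p16 cells and 3.85 FPKM in GFP cells. Ccnd1, which encodes cyclin D1, the partner of those kinases, had 72.7 FPKM in p16 cells and 32.7 FPKM in GFP cells, a 2.23-fold rise in the authors' deposited table (q = 0.00245). The gene that fell was Nqo1, a quinone reductase gene, at 6.70 FPKM in p16 cells and 12.9 FPKM in GFP cells (q = 0.0411 in the authors' deposited table); this name was added with the values known. Of the matrix metalloproteinase genes in the list, Mmp3, Mmp9, Mmp10, Mmp12 and Mmp13 were not tested, and Mmp14 had 0.795 FPKM in p16 cells and 0.0488 FPKM in GFP cells without passing (q = 0.0786 in the authors' deposited table). Listed at 0 were 2 of the classic targets in p16 cells and 5 in GFP cells. Vim is also made by stellate cells and leukocytes, whose marker sums are given above, and their part in these values was not tested.

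Other immediate early and dissociation-responsive genes were lower in p16 cells too. All 21 listed, none of them an AP-1 subunit, were tested and had lower values in p16. Of the 21, 14 fell in the authors' deposited table, where 1.1% of all tested genes fell. The median log2 ratio of the 21 was -1.45. Their summed level was 979.1 FPKM in p16 cells and 2422 FPKM in GFP cells. Btg2, which encodes an antiproliferative protein, had 86.3 FPKM in p16 cells and 367.7 FPKM in GFP cells, and Egr1, an early zinc finger factor, had 61.3 FPKM in p16 cells and 243.2 FPKM in GFP cells. Dusp1, which encodes a phosphatase that switches off MAP kinases, had 41.1 FPKM in p16 cells and 163.3 FPKM in GFP cells. Dnajb1, a heat shock co-chaperone gene, had 45.7 FPKM in p16 cells and 171.6 FPKM in GFP cells, and each of these 4 had a q-value of 0.00245 in the authors' deposited table. The 14 include Hspa1a and Hspa1b, near-identical copies between which the split of reads is uncertain. The part of islet dissociation in the AP-1 values was not tested, and times from dissection to lysis were not given in the sources used here.

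**Figure D4:**
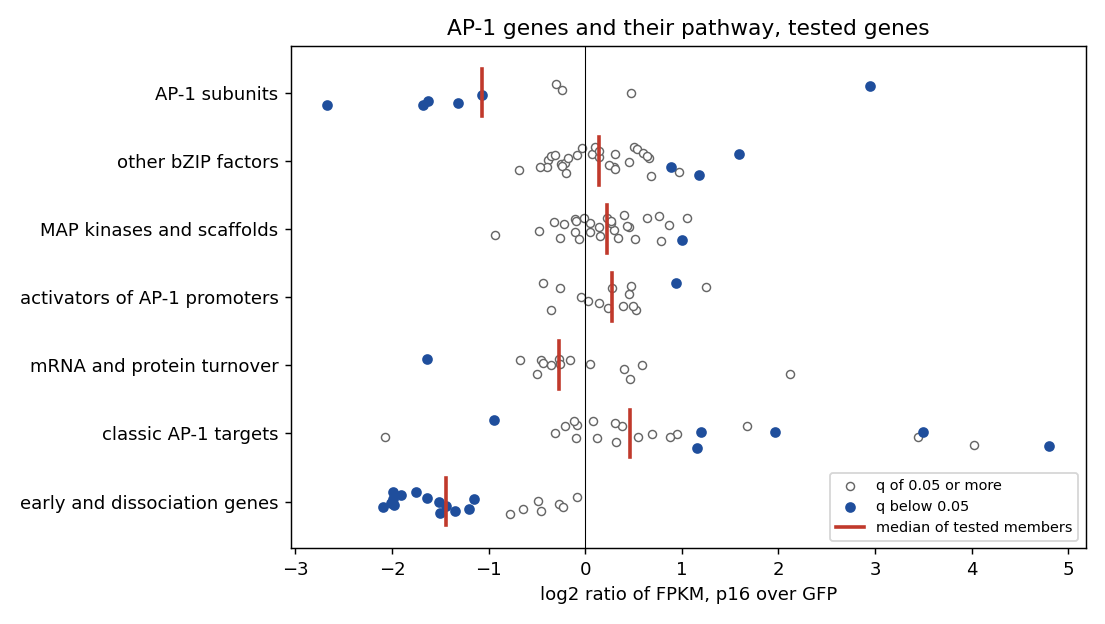
Log2 ratio of FPKM, p16 over GFP, for each tested gene of the AP-1 subunits and 6 related lists, 1 row per list; filled points had a q-value below 0.05 in the authors' deposited table, open points one of 0.05 or more, and red bars are medians of tested genes. The medians of the AP-1 subunits, at -1.07, and of the early and dissociation genes, at -1.45, lie left of 0, and those of the other lists lie between -0.27 and 0.46.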

How the data were processed

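RNA of sorted beta cells was sequenced in 3 p16 and 2 GFP samples. Per the submitters' processing notes, TopHat2, Cuffnorm and Cuffdiff were used on the mm9 build; versions, strandedness and gene models are not stated in them. The authors deposited, for each gene, 1 FPKM per group with a p-value, a q-value and the score of the test. FPKM values are not counts, so no count test was run, and limma on sample values, planned for a table that held them, could not be run. The deposited q-values match a Benjamini-Hochberg adjustment over 13264 genes to within 5.23e-07. Log2 ratios (p16 over GFP) were recomputed without a pseudocount, and calls used the authors' q below 0.05. Starts in the table were counted from 0, as lengths of 272 of 887 microRNA genes matched that count and 1 matched a count from 1; 1 was added.

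The AP-1 members and the lists were chosen with earlier results of these data known. Named genes were all 10 members and, per list, up to 4 called genes of largest difference of log2(FPKM + 1), or, with fewer than 2 called, the 2 tested genes of highest mean FPKM; a few of these are not reported here. Transcript GC content and length were those of the longest GENCODE M21 transcript, matched by symbol for 95.1% of tested genes; splines with 4 degrees of freedom each explained 23.0% of the variance of the signed quantiles. Of 17 listed promoter activators and 15 turnover genes, 15 and 14 symbols were in the table; the others are newer names of genes listed under older ones. Alternatives covered thresholds, filters, pseudocounts, scaling and the trend. Promoter sequences came from RefSeq. Python 3.11.15, numpy 2.4.6, pandas 2.3.3, scipy 1.17.1, patsy 1.0.2 and matplotlib 3.10.9 were used.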

Additional observations from a re-analysis of the deposited data

How the results depend on the processing

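The count of 5 AP-1 genes lower in p16 was also 5 at a q-value below 0.10, with p-values readjusted among genes whose mean was at least 1 or 5 FPKM, and with the GC content and length trend removed, and was 3 at a q-value below 0.01. The count of 1 higher, Jdp2, was 0 at a q-value below 0.01, 0 with either filter, which drops it, and 0 with the trend removed. Pseudocounts cannot change the sign of a ratio, and centring by the median of -0.02 was too small to change one here. With quantile normalization, which could, no sign changed. The member ratios had 40 alternatives in all. Of these, 7 changed in size by over 1.5 times: Jdp2 (log2 ratio 1.03 and 0.31 with pseudocounts of 1 and 5, and 0.91 with quantile normalization), Batf3 (0.29, 0.07 and 0.20) and Fosl1 (-0.13 with a pseudocount of 5). For the subfamily sums, log2 ratios were -1.86 in the Fos family, -0.52 in the Jun family and -1.30 in the ATF-like genes, and -1.72, -0.38 and -1.12 with quantile normalization. Among the 24 classic targets tested, 8 rose at a q-value below 0.10 and 4 at one below 0.01 in the authors' deposited table. The shares of all tested genes that rose at these thresholds are not given here, so these counts are not read as a result about the targets. Such shares are also not given for the AP-1 counts at a q-value below 0.10 and with the filters. No paired analysis was possible because the table holds no value per sample; leaving out each replicate was not run for the same reason. Depth is unknown, which limits what low values such as those of Jdp2 and Batf3 can show.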

Other observations

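Several of the AP-1 genes are neighbours in the genome, and neighbours had different values. On chromosome 12 (mm9), Fos, which fell, and Jdp2, which rose, lie 121.8 kb apart with 0 other table genes between them. Jdp2 was near the floor, at 1.41 FPKM in p16 cells and 0.184 FPKM in GFP cells. Its call was lost at a q-value below 0.01 and with the GC content and length trend removed. Batf, a related bZIP gene of lymphocytes, follows 46.8 kb beyond Jdp2 and stood at 0.933 FPKM in p16 cells and 0.476 FPKM in GFP cells (q = 0.475 in the authors' deposited table). On chromosome 1 (mm9), Batf3 and Atf3 lie 61.4 kb apart with 1 table gene between them, and Atf3 was the abundant one of the pair.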
